A study of Mus musculus castaneus and Mus musculus domesticus with 13 samples.

Results

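The genes of the smooth-muscle contractile apparatus were followed across every library of a study of mouse embryonic stem cells made by nuclear transfer (ntESCs). They were *Acta2*, *Tagln*, *Myl9*, *Cnn1*, *Tpm1*, *Tpm2*, *Actg2*, *Myh11*, *Des* and *Lmod1*, taken by symbol from a table of read counts. All 10 were present, each in 1 row, among 21706 genes. Poly(A) RNA had been sequenced in 13 libraries. Each came from a different culture, and no line was sequenced again, so the spread between libraries of a group is the spread between lines. The genotype label was wild type throughout. The 10 ntESC lines had been derived from nuclei of blood leukocytes placed into enucleated oocytes of B6D2F1 females. The nuclei came from B6D2F1 mice, the hybrid of C57BL/6 and DBA/2 (lines M3 and F2), from CAST/Ei mice (CAST, lines M2, M8, F1 and F2) and from CASP/1Nga mice (CASP, male lines M3 and M5, female lines F4 and F6). The first letter of a line's name gives its sex. CAST and CASP are wild-derived strains of *Mus musculus castaneus*. The lines were kept in 2i/LIF on a feeder layer of growth-arrested embryonic fibroblasts of C57BL/6 mice, and feeder cells were depleted on gelatin before RNA was taken. Fertilization-derived B6D2F1 embryonic stem cells (ESC), B6D2F1 embryonic fibroblasts (MEF) and CAST tail-tip fibroblasts (TTF) had 1 library each. The ages of the animals that gave the cells were not given in the sources used here. MEF and TTF therefore differ in strain, in tissue and in stage of life, and these cannot be told apart.

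Smooth muscle shortens when myosin pulls on actin filaments, and it is switched on by phosphorylation of the myosin regulatory light chain. The same genes are used outside muscle by the myofibroblast, a contractile fibroblast of wounds and of cultures on stiff plastic, which is recognised by smooth-muscle alpha-actin in its stress fibres. Serum response factor (SRF) drives many of them together with the coactivator myocardin or the myocardin-related factors, and TGF-β signalling raises them in fibroblasts. *Acta2* and *Actg2* encode the alpha and gamma smooth-muscle actins. *Tpm1* and *Tpm2* encode tropomyosins, which lie along the filament. *Tagln* and *Cnn1* encode the actin-binding proteins transgelin and calponin 1, and *Lmod1* encodes leiomodin 1, which starts new actin filaments. *Myh11* and *Myl9* encode the smooth-muscle myosin heavy chain and a regulatory light chain. *Des* encodes desmin, an intermediate filament protein of all muscle.

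Libraries held 33395162 to 49968894 counts. Levels are given as CPM, the counts of a gene relative to the library's total on a fixed scale, adjusted with TMM factors of 0.825 to 1.09, and 3 counts corresponded to 0.0573 to 0.0926 CPM. The cell labels were checked on marker genes. Of 10 pluripotency genes, all 10 were higher in the ntESC lines than in the fibroblasts by the edgeR test described below, and *Pou5f1* had a count of 0 in MEF and in TTF. The summed level of 14 fibroblast markers was 8650 CPM in MEF, 20952 CPM in TTF and 267 to 711 CPM in the ntESC lines. The MEF library also held transcripts of genes that mark other cell types. The summed level of 18 striated-muscle markers was 2084 CPM in MEF and 5.84 CPM in TTF, and that of 8 neural progenitor markers was 1365 CPM in MEF and 51.0 CPM in TTF.

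Several of these genes have near copies, so the places where they are most alike are shown. The sequences are the most similar stretches of 100 coding bases in GENCODE M21 transcripts, 5′ to 3′ on the coding strand, with the bases that differ from the partner in capitals. The positions are counted from the first base of the start codon, and the gene bounds are on GRCm38.
Acta2, coding bases 886 to 985, gene at chr19:34241090-34255590, minus strand: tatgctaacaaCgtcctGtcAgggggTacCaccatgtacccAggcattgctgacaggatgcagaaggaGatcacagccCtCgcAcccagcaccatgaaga
Actg2, coding bases 883 to 982, gene at chr6:83512905-83536265, minus strand: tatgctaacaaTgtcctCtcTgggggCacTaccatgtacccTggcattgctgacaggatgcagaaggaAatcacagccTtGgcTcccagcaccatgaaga
Tpm1, coding bases 322 to 421, gene at chr9:67022590-67049406, minus strand: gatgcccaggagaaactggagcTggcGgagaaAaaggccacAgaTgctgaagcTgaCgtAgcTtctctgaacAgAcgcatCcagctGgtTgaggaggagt
Tpm2, coding bases 196 to 295, gene at chr4:43514711-43523765, minus strand: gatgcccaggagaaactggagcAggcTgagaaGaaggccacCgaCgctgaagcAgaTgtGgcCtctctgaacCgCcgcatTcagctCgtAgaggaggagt
Myl9, coding bases 67 to 166, gene at chr2:156775420-156781658, plus strand: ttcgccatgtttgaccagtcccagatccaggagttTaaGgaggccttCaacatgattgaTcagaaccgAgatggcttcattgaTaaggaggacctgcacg
Myl12b, coding bases 67 to 166, gene at chr17:70973133-70990890, minus strand: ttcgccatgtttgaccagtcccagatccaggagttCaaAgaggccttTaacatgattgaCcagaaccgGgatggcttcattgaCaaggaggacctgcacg
*Myl12b*, which encodes a nonmuscle light chain, is shown as the closest copy of *Myl9*. The *Acta2* and *Actg2* windows differed at 10 of 100 bases, the *Tpm1* and *Tpm2* windows at 14 and the *Myl9* and *Myl12b* windows at 6. No stretch of 100 bases, the length of 1 read, was identical between a member and any of the near copies compared. The longest identical run was 65 bases, between *Myh11* and each of the nonmuscle myosin genes *Myh9* and *Myh10*. The reads of these genes can therefore be told apart by sequence in most places, but how the authors' counting placed a read with several matches was not given in the sources used here.

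The other members lie at chr9:45929619-45936058 on the minus strand (*Tagln*), chr9:22099216-22109630 on the plus strand (*Cnn1*), chr16:14194535-14291372 on the minus strand (*Myh11*), chr1:75360329-75368579 on the plus strand (*Des*) and chr1:135324807-135368065 on the plus strand (*Lmod1*). All 10 are protein-coding genes. Exons of *Tagln* overlap those of the antisense locus *Gm48529* over 1241 bases, 62.4% of its exon length, and those of *Pcsk7* on the opposite strand over 108 bases. The kit marked the strand, but whether the counting used it was not given. *Gm48529* stood at 167 CPM in MEF, 30.2 CPM in TTF and 1.05 to 4.89 CPM in the ntESC lines, in the same order as *Tagln*, so *Tagln* values may hold or lack reads of that locus.

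MEF expressed all 10 genes far above TTF. *Acta2* had the highest level of the members in both cultures, 4737 CPM in MEF and 650.0 CPM in TTF, a ratio of 7.29. *Actg2* stood at 321 CPM in MEF and 27.9 CPM in TTF, a ratio of 11.5. Both smooth-muscle actins were thus strong in MEF and present in TTF, with 16804 and 1058 counts behind the *Actg2* values. The tropomyosins differed less. *Tpm1* stood at 2566 against 546 CPM, a ratio of 4.70, and *Tpm2* at 325 against 109.9 CPM, a ratio of 2.95. *Lmod1* was the weakest member in MEF and also among the least different, with 32.4 CPM in MEF and 10.8 CPM in TTF, a ratio of 2.99. The actin-binding proteins lay between. *Tagln* stood at 1896 against 287 CPM, a ratio of 6.60, and *Cnn1* at 164 against 28.7 CPM, a ratio of 5.72.

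*Myh11* and *Des* held the widest gaps, and the light chain gene *Myl9* a smaller one. *Myl9* stood at 671 CPM in MEF and 80.8 CPM in TTF, a ratio of 8.30. *Myh11*, the heavy chain regarded as the most specific marker of differentiated smooth muscle, stood at 166 CPM in MEF and 5.48 CPM in TTF, a ratio of 30.3. *Des* stood at 193 CPM in MEF and 5.82 CPM in TTF, a ratio of 33.1. The TTF values of *Myh11* and *Des* rested on 208 and 221 counts, well above the level of 3 counts. The TTF culture thus held *Myh11* and *Des* at 3.31% and 3.02% of the MEF level, and the other 8 genes at 8.68% (*Actg2*) to 33.8% (*Tpm2*).

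**Figure D1:**
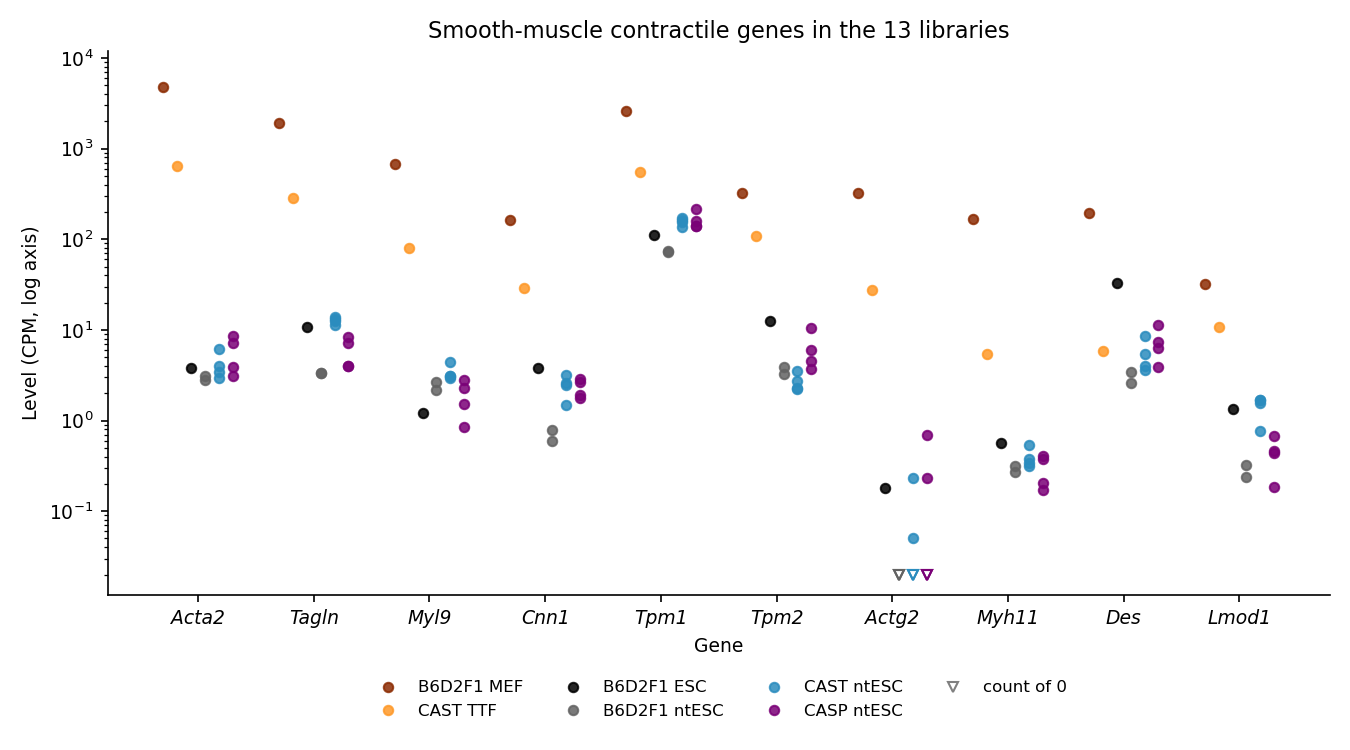
Level of each smooth-muscle contractile gene in each of the 13 libraries, in CPM on a log axis, with 1 point per library and open triangles for a count of 0. MEF lies highest for all 10 genes, TTF lies next for all but *Des*, and the ntESC and ESC libraries lie below both except for *Des*, where the lines (2.57 to 11.3 CPM) lie around TTF (5.82 CPM) and ESC (33.1 CPM) lies above it.

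With 1 library of each, this difference has no replicate check. Of the 10 members, 10 were at least 2-fold higher in MEF and 0 in TTF. Of 12988 genes with at least 5 CPM in the higher library, 23.5% were at least 2-fold higher in MEF and 25.7% at least 2-fold higher in TTF. The median log2 ratio of CPM + 0.5 was 2.79 over the members and -0.03 over all those genes. Without TMM scaling (library size only), the median over all genes rose to 0.34 and that over the members to 3.14, and the share of 2-fold differences that were higher in MEF went from 47.8% to 61.5%. At a threshold of 4-fold, 8 of 10 members were higher in MEF, without *Tpm2* and *Lmod1*, as were 12.5% of all those genes, while 13.2% were higher in TTF. The members summed to 11070.1 CPM in MEF, 1.16% of its counts, and to 1753 CPM in TTF, 0.145% of its counts. In such bulk samples, fewer cells of a type and less RNA per cell cannot be told apart.

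Compared per kilobase of exon, so that levels of different genes can be set side by side, the order in MEF was *Acta2* (2157 CPM per kb), *Tagln* (954), *Myl9* (577), *Tpm1* (396), *Actg2* (206), *Tpm2* (112), *Cnn1* (60.1), *Des* (51.3), *Myh11* (21.8) and *Lmod1* (8.20 CPM per kb). In TTF, *Acta2* (296 CPM per kb) and *Tagln* (144 CPM per kb) again led, and *Des* (1.55 CPM per kb) and *Myh11* (0.721 CPM per kb) came last. *Acta2* made up 47.5% of the members' summed CPM per kb in MEF and 44.5% in TTF. The culture with less of these transcripts thus kept nearly the same share of *Acta2* among them.

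All members but *Lmod1* were set beside relatives of their protein family, most of which are used outside muscle. The actin family also holds the striated-muscle genes *Acta1* and *Actc1*. The share of a family taken by its smooth-muscle members compares cell types without reference to the total. Of 6 actin genes, *Acta2* and *Actg2* together took 41.4% of CPM per kb in MEF, 16.8% in TTF, 0.264% in ESC and 0.0739% to 0.257% (median 0.111%) in the ntESC lines. The cytoplasmic actin genes *Actb* and *Actg1* took most of the rest, with 49.6% and 33.5% in TTF. *Myl9* took 72.8% of 3 regulatory light chain genes in MEF, 23.6% in TTF and 0.572% to 3.17% in the ntESC lines. The dominant light chain gene was *Myl9* in MEF and *Myl12a* in TTF (59.6%). *Myh11* remained a minor heavy chain even in MEF, with 7.82% beside *Myh9* (46.3%) and *Myh10* (45.9%), and took 0.439% in TTF.

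The transgelin family behaved differently. *Tagln* took 84.0% of *Tagln* and *Tagln2* in MEF and 78.9% in TTF, against 1.94% to 13.4% in the ntESC lines. *Tpm1* and *Tpm2* took 49.8% of 4 tropomyosin genes in MEF, 24.1% in TTF and 10.9% to 23.7% in the ntESC lines. TTF thus lay close to the highest lines. Counts per gene do not separate the transcript forms of *Tpm1*, so its share may not be of smooth muscle alone. *Cnn1* took 8.93%, 2.91% and 0.105% to 0.489% of 3 calponin genes. *Des* took 9.26% of *Des* and *Vim* in MEF and 0.0890% in TTF, but 19.3% in ESC and 1.39% to 11.6% in the ntESC lines. *Vim*, which encodes the intermediate filament protein of mesenchymal cells, stood at 8256 CPM in TTF, 2385 CPM in MEF and 71.8 to 268 CPM in the ntESC lines.

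**Figure D2:**
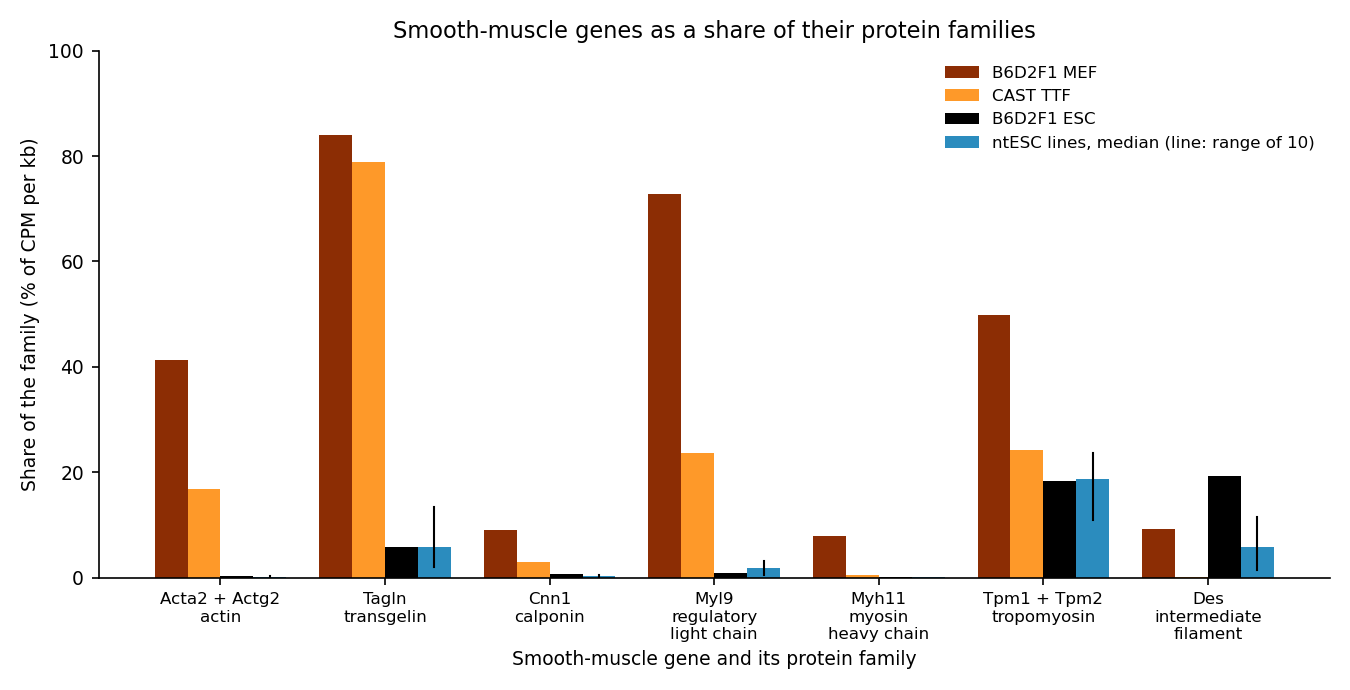
Share of each protein family, in percent of the family's summed CPM per kb, taken by its smooth-muscle gene or genes in MEF, TTF, ESC and the 10 ntESC lines (bar, median; line, range). *Tagln* leads its family in both fibroblast cultures (84.0% and 78.9%), *Myl9* leads only in MEF (72.8% against 23.6%), and the desmin share is larger in ESC (19.3%) than in MEF (9.26%).

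Other genes of the contractile apparatus were also higher in MEF. Of 16 listed, 13 reached 5 CPM in MEF or TTF, and 10 of these were at least 2-fold higher in MEF and 0 in TTF (median log2 ratio 1.69). *Synpo2*, which encodes an actin-bundling protein, stood at 37.4 CPM in MEF and 3.48 CPM in TTF. *Pdlim7*, which encodes a scaffold protein of actin bundles, stood at 278 against 43.0 CPM, and *Itga8*, which encodes an integrin subunit of contractile cells, at 62.2 against 11.5 CPM. *Pdlim3*, which encodes an alpha-actinin-binding protein, stood at 15.3 CPM in MEF and had a count of 0 in TTF. *Cald1* and *Prkg1*, the genes for caldesmon and cGMP-dependent protein kinase, differed by less than 2-fold. Of 14 nonmuscle counterparts, 3 were at least 2-fold higher in MEF (*Myh10*, *Tagln2* and *Actg1*) and 1 in TTF (*Vim*), with a median of 0.68.

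Of the factors known to act on these genes, 3 of the 8 that reached 5 CPM were at least 2-fold higher in MEF and 0 in TTF. *Srf* stood at 100.5 CPM in MEF and 40.1 CPM in TTF. *Myocd*, the gene for myocardin, stood at 7.79 against 0.448 CPM, and *Gata6*, a GATA factor gene of smooth muscle and endoderm, at 22.2 against 0.790 CPM. The myocardin-related factor genes did not share this direction, with *Mrtfa* at 43.2 against 66.9 CPM and *Mrtfb* at 51.3 against 72.3 CPM. *Tead1* stood at 383 against 259 CPM, *Tbx18* at 17.8 against 11.8 CPM and *Prrx1* at 269 against 435 CPM. *Foxf1* (2.73 against 4.74 CPM) and *Tcf21* (4.58 CPM against a count of 0) did not reach 5 CPM.

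The matrix and TGF-β genes that usually accompany the myofibroblast state did not follow the contractile genes. Of 13 myofibroblast matrix genes, 3 were at least 2-fold higher in MEF and 5 in TTF (median log2 ratio -0.19). *Cthrc1*, which encodes a secreted protein of activated fibroblasts, stood at 75.8 CPM in MEF and 4.34 CPM in TTF, and *Fap*, which encodes fibroblast activation protein, at 29.3 against 3.42 CPM. In the other direction, *Lox*, the gene for the collagen cross-linking enzyme lysyl oxidase, stood at 184 CPM in MEF and 3445 CPM in TTF. Of 13 genes of the TGF-β pathway, 1 was at least 2-fold higher in MEF and 4 in TTF (median -0.27). Of the ligand genes, *Tgfb2* stood at 214 against 30.3 CPM, *Tgfb1* at 26.5 against 49.7 CPM and *Tgfb3* at 204 against 244 CPM. The receptor genes *Tgfbr2* and *Tgfbr3* stood at 37.2 against 351 CPM and 8.84 against 186 CPM, the coreceptor gene *Eng* at 28.9 against 244 CPM, and *Ltbp2*, which encodes a protein of elastic fibres related to the latency proteins of TGF-β, at 18.9 against 2337 CPM. The receptor gene *Tgfbr1* stood at 179 against 163 CPM. The ligand genes thus did not share a direction. Of the receptor and coreceptor genes, *Tgfbr2*, *Tgfbr3* and *Eng* were lower in MEF past 2-fold, and *Tgfbr1* differed by less than 2-fold.

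**Figure D3:**
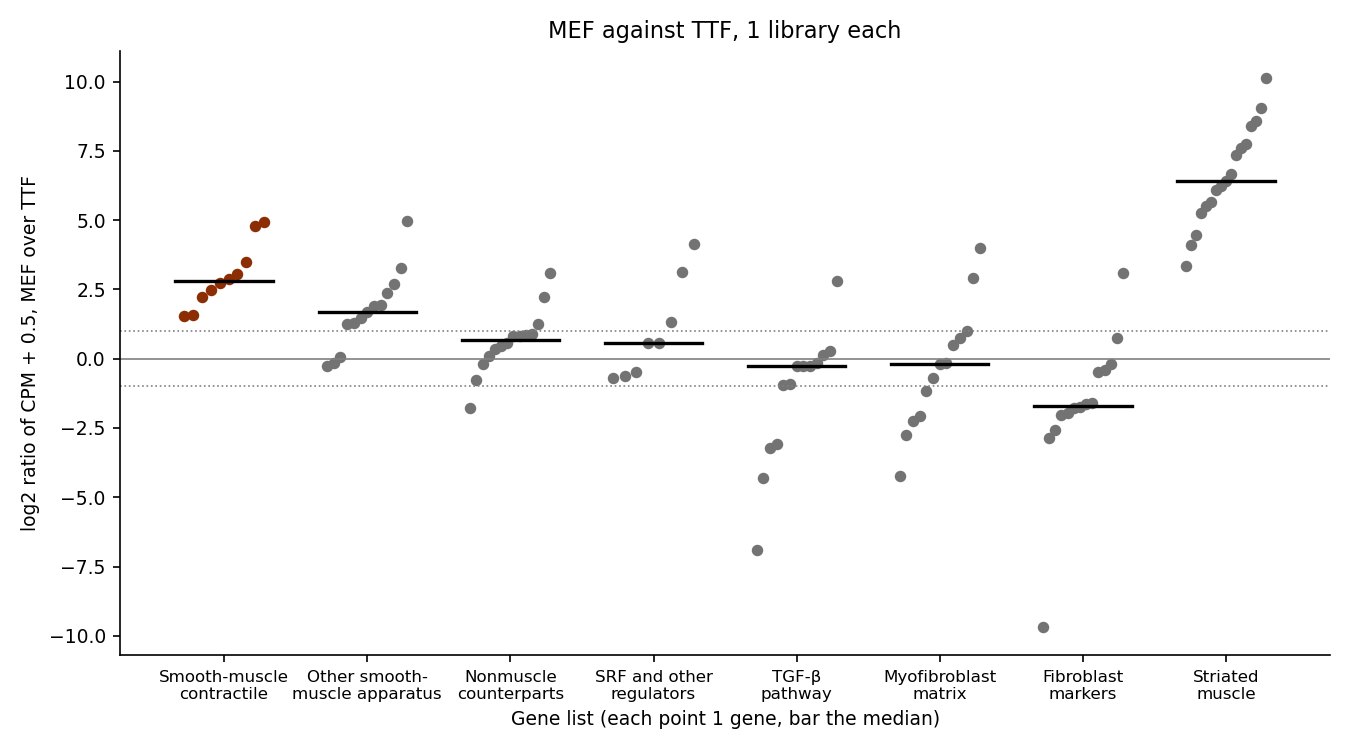
log2 ratio of CPM + 0.5 of MEF over TTF for each gene of 8 lists that reached 5 CPM in either library, 1 point per gene, with a bar at the list's median and dotted lines at 2-fold. All 10 smooth-muscle contractile genes and all 17 striated-muscle genes lie above the upper dotted line, while the TGF-β, matrix and fibroblast lists have medians below 0.

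Striated-muscle markers were also higher in MEF, while pericyte and endothelial markers went both ways. Of 18 striated-muscle markers, 17 reached 5 CPM and 17 were at least 2-fold higher in MEF (median log2 ratio 6.41). *Actc1*, the cardiac actin gene, stood at 556 CPM, *Myh3*, the embryonic myosin heavy chain gene, at 345 CPM, *Ttn*, the gene for titin, at 169 CPM, and the myogenic factor genes *Myog* and *Myod1* at 190.5 and 81.3 CPM. In TTF, 10 of the 18 had a count of 0, *Actc1*, *Ttn*, *Myog*, *Myod1*, *Myf5*, *Pax7*, *Tnnt1*, *Tnni1*, *Tnnc2* and *Myl1*. *Des*, *Tpm1* and *Tpm2* are also genes of striated muscle. Of 8 pericyte markers, 7 reached 5 CPM, with 3 higher in MEF and 2 in TTF, and their sum was 802 CPM in MEF and 1095 CPM in TTF. Of 10 endothelial markers, 5 reached 5 CPM, with 3 higher in MEF and 1 in TTF (sums of 43.1 and 75.2 CPM), and *Cdh5*, *Tie1*, *Emcn*, *Cldn5* and *Esam* had a count of 0 in TTF. The part of these cell types in the members' ratios was not tested.

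The fibroblast markers themselves ran the other way. Of 14, 1 was at least 2-fold higher in MEF and 9 in TTF (median log2 ratio -1.70). *S100a4*, which encodes a calcium-binding protein of motile fibroblasts, stood at 3.28 CPM in MEF and 3139 CPM in TTF, *Dcn*, which encodes decorin, at 21.4 against 159 CPM, *Fbln1*, which encodes fibulin 1, at 109.7 against 651 CPM, and *Pdgfra*, which encodes a PDGF receptor, at 73.6 against 299 CPM. *Thy1*, which encodes a surface glycoprotein, was the one higher in MEF, with 25.1 against 2.50 CPM. Of the remaining lists, all 6 macrophage and leukocyte markers that reached 5 CPM were higher in TTF, all 7 such neural progenitor markers were higher in MEF, and of 3 such keratinocyte markers 2 were higher in MEF and 1 in TTF.

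The ntESC lines expressed all 10 genes at a lower level than the 2 fibroblast libraries, treated as a group. The difference was tested with edgeR's quasi-likelihood method over 20896 genes, with p-values adjusted by the Benjamini-Hochberg method and a threshold of 0.05. Of the 10 members, 10 were lower and 0 higher in the ntESC lines, while 28.2% of all genes tested were lower and 23.6% higher. The median log2 fold change was -6.42 over the members and 0.07 over all genes. *Acta2* stood at 4.53 ± 2.05 CPM (SD, n = 10) against 650.0 and 4737 CPM, and fell by 9.26 on the log2 scale (SE 0.51, edgeR adjusted p = 4.5e-08). *Tagln* stood at 8.11 ± 4.35 CPM (n = 10) and fell by 7.12 (SE 0.56, edgeR adjusted p = 7.1e-07). *Myl9* stood at 2.60 ± 0.986 CPM and fell by 7.22 (SE 0.50, edgeR adjusted p = 2.4e-07). All 10 lines lay below both fibroblast libraries in these 3 genes.

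*Myh11* was close to the limit of detection in the lines, at 0.332 ± 0.104 CPM from 6 to 21 counts per library, and fell by 8.04 (SE 0.62, edgeR adjusted p = 6.1e-07). *Actg2* had a count of 0 in 6 of 10 lines and at most 24 counts in any (CASP M3, 0.695 CPM), and its fitted change of -10.55 (SE 1.12, edgeR adjusted p = 8.1e-06) depends on how such counts are handled. *Tpm1* fell least, by 3.50 (SE 0.38, edgeR adjusted p = 9.5e-06), from 2566 and 546 CPM to 143 ± 42.5 CPM (n = 10). *Tpm2* fell by 5.72 (SE 0.44), *Cnn1* fell by 5.61 (SE 0.50) and *Lmod1* fell by 4.79 (SE 0.64).

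*Des* was the exception. It fell by 4.17 (SE 0.65, edgeR adjusted p = 0.00018), but its TTF level (5.82 CPM) lay inside the range of the lines (2.57 to 11.3 CPM). Without the MEF library, the change of *Des* was -0.09 (edgeR adjusted p = 0.912), and the other 9 members were still lower, by smaller amounts. The change of *Myh11* was then -4.09, that of *Acta2* -7.22, that of *Tagln* -5.20, that of *Myl9* -5.01 and that of *Actg2* -7.90. *Tpm1* (-1.99), *Cnn1* (-3.87), *Tpm2* (-4.75) and *Lmod1* (-3.80) also came closer to 0, so the size of each change depended on which fibroblast culture entered. For the other 9 members both fibroblast libraries stood above all 10 lines, as did 20.4% of all genes. With 2 fibroblast libraries of different strain and tissue, the test cannot separate those from cell type.

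Genes around the members showed the same direction in this comparison. Of the other contractile genes, 13 of 15 tested were lower in the ntESC lines, as were 9 of 14 nonmuscle counterparts, 13 of 13 TGF-β pathway genes, 13 of 13 matrix genes, 13 of 14 fibroblast markers and 13 of 15 striated-muscle markers, with none higher. *Prkg1* fell by 8.40 on the log2 scale, and *Mylk*, the gene for myosin light chain kinase, fell by 5.41. Among the regulators, 8 of 9 tested were lower. *Srf* was the one that did not pass, at 58.8 to 108 CPM in the lines against 100.5 and 40.1 CPM (log2 fold change 0.16, edgeR adjusted p = 0.659). *Myocd* stood at 0 to 0.154 CPM in the lines, and *Mrtfa* and *Mrtfb* at 13.3 to 29.5 and 22.6 to 44.5 CPM. The lines therefore held transcripts of SRF and of the myocardin-related factors, and next to none of myocardin.

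What was left of each gene in the pluripotent cells was set against the MEF level. The median over the 10 lines was 0 for *Actg2*, 0.0775% for *Acta2* (0.0597% to 0.183%), 0.199% for *Myh11* (0.104% to 0.326%), 0.408% for *Tagln* (0.176% to 0.736%) and 0.408% for *Myl9* (0.127% to 0.667%). It was 1.11% for *Tpm2* (0.688% to 3.24%), 1.32% for *Cnn1* (0.364% to 1.92%), 1.75% for *Lmod1* (0.573% to 5.27%), 2.44% for *Des* (1.34% to 5.87%) and 5.78% for *Tpm1* (2.82% to 8.31%). The median of these 10 values was 0.761%. Over 14 fibroblast markers it was 5.53%, from 1.58% for *Fbn1* and 2.32% for *Col1a1* to 77.7% for *Fbln1*. Set against TTF instead, the order turned round, with a median of 4.31% over the members and 1.99% over the fibroblast markers. Which of these lists was lower in the lines thus depended on the fibroblast culture used as the reference.

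**Figure D4:**
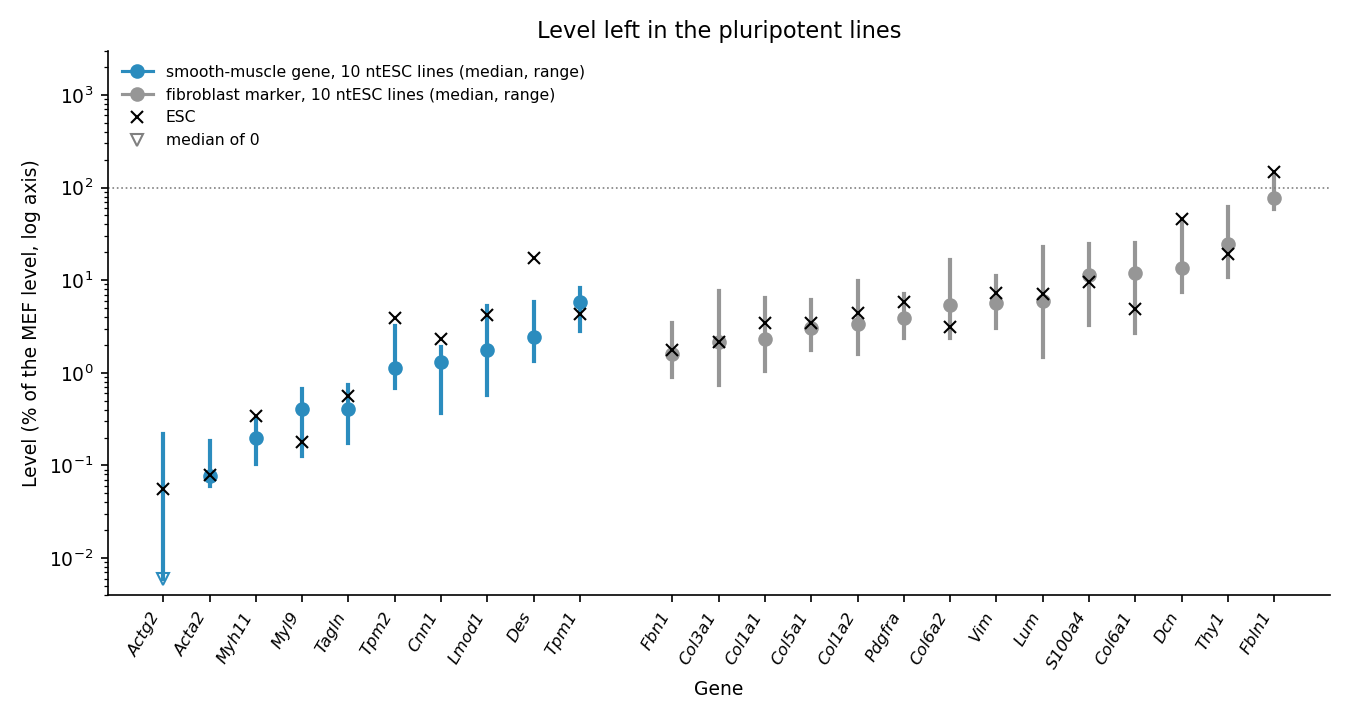
Level of each smooth-muscle gene (blue) and fibroblast marker (grey) in the 10 ntESC lines, as a percent of the MEF level on a log axis (point, median; line, range), with the ESC library as a cross. The 5 lowest medians are those of *Actg2*, *Acta2*, *Myh11*, *Myl9* and *Tagln*, all at or below 0.408%, and the ESC cross for *Des* stands at 17.2%.

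The order of levels in the lines also differed from that in the fibroblasts. Per kilobase, *Tpm1* led with a median of 22.9 CPM per kb (11.2 to 32.9) and made up 66.7% of the members' sum of medians. *Tagln* (3.89 CPM per kb), *Myl9* (2.36 CPM per kb), *Acta2* (1.67 CPM per kb), *Des* (1.25 CPM per kb) and *Tpm2* (1.24 CPM per kb) followed, with ranges over the lines that overlapped from each to the next. *Cnn1* (0.795 CPM per kb), *Lmod1* (0.143 CPM per kb), *Myh11* (0.0433 CPM per kb) and *Actg2* (0) came last. Summed without *Tpm1*, the other 9 genes came to 16.4 to 45.4 CPM in the lines, against 8504 CPM in MEF.

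The fertilization-derived ESC library held the same genes within or above the range of the ntESC lines. *Des* stood at 33.1 CPM in ESC, from 1476 counts, against 2.57 to 11.3 CPM in the ntESC lines. *Tpm2* stood at 12.5 CPM against 2.24 to 10.5 CPM, *Cnn1* at 3.84 against 0.598 to 3.16 CPM and *Myh11* at 0.561 against 0.172 to 0.540 CPM. These 4 of 10 members were above all 10 lines, as were 19.9% of all genes, and 0 were below all lines, as were 16.8% of all genes. The margin over the highest line was wide for *Des* and narrow for the other 3. *Acta2* (3.77 CPM), *Tagln* (10.7 CPM), *Myl9* (1.21 CPM), *Tpm1* (111 CPM), *Lmod1* (1.35 CPM) and *Actg2* (0.180 CPM) lay inside the range of the lines. That range includes the castaneus lines. Set against the lines of its own strain, ESC stood above both B6D2F1 lines in every member but *Myl9*. The B6D2F1 lines M3 and F2 held *Tagln* at 3.34 and 3.34 CPM and *Cnn1* at 0.598 and 0.788 CPM. They held *Lmod1* at 0.326 and 0.236 CPM, *Tpm1* at 72.3 and 74.8 CPM and *Myl9* at 2.66 and 2.18 CPM. With 1 ESC library the difference has no replicate check.

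The lines differed in how much fibroblast transcript they held. The median of the fibroblast markers, as a percent of MEF, was 2.87% to 7.13% in 7 lines and 11.6%, 10.5% and 9.86% in CASP M3, CAST F2 and CASP F6. *Acta2* was highest in the same 3 lines, at 8.66, 6.19 and 7.13 CPM against 2.83 to 4.04 CPM in the other 7. *Col1a1*, which encodes a chain of collagen I, stood at 104.9, 105.9 and 81.7 CPM there and at 17.0 to 72.3 CPM in the others. For the other 9 members, 0 to 2 of these lines were among the 3 highest. *Lmod1* shared none and *Tagln*, *Myl9*, *Actg2* and *Des* shared 1. Feeder cells are fibroblasts of another strain than the sequenced MEF, and their part in these levels was not tested. Because of this pattern, each count between groups of lines was also made without these 3 lines, a choice made after the data were seen.

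Between strains, the contractile genes ranked the lines differently gene by gene. CAST against B6D2F1 was tested over all 10 ntESC lines with sex as a covariate. Of 9 members that passed the filter on low counts, 4 were higher in CAST and 0 lower, while 17.4% of 20226 genes tested were higher and 15.3% lower. *Actg2* did not pass the filter. The median log2 fold change was 0.87 over the 9 members and 0.03 over all genes. The 4 were *Tagln*, *Cnn1*, *Tpm1* and *Lmod1*.

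*Tagln* stood at 11.2, 12.5, 13.3 and 14.0 CPM in CAST M2, M8, F1 and F2, against 3.34 and 3.34 CPM in B6D2F1 M3 and F2. All 4 CAST lines lay more than 3-fold above both B6D2F1 lines, and *Tagln* rose by 1.92 (SE 0.33, edgeR adjusted p = 0.00172). The overlapping locus *Gm48529* stood at 2.54 to 4.89 CPM in CAST and at 1.09 and 1.05 CPM in B6D2F1. *Tpm1* stood at 135, 156, 173 and 162 CPM in the CAST lines against 72.3 and 74.8 CPM, and rose by 1.07 (SE 0.14, edgeR adjusted p = 0.00033). *Cnn1* stood at 1.49, 2.62, 3.16 and 2.44 CPM against 0.598 and 0.788 CPM, and rose by 1.79 (SE 0.38, edgeR adjusted p = 0.00485). *Lmod1* stood at 1.57, 1.69, 1.71 and 0.772 CPM against 0.326 and 0.236 CPM, and rose by 2.32 (SE 0.55, edgeR adjusted p = 0.00942). Its B6D2F1 values rested on 12 and 9 counts.

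The remaining members did not pass between CAST and B6D2F1. *Myl9* (2.96 to 4.47 against 2.18 and 2.66 CPM) and *Des* (3.62 to 8.63 against 2.57 and 3.45 CPM) did not overlap between the groups, as the 4 called members did not, but their log2 differences of 0.48 (edgeR adjusted p = 0.39) and 0.87 (edgeR adjusted p = 0.164) missed the threshold. With 4 lines against 2, 57.2% of all genes tested did not overlap either. The 95% intervals for *Acta2*, *Tpm2* and *Myh11* were -0.52 to 1.45, -1.29 to 0.44 and -0.81 to 1.61. Only 2 B6D2F1 lines enter. Without B6D2F1 M3, the adjusted p was 0.0629 for *Cnn1* and 0.0786 for *Lmod1*, and without B6D2F1 F2 it was 0.087 for *Lmod1*. With ESC counted as a B6D2F1 line, *Tpm1* alone passed, and the differences of *Tagln*, *Cnn1* and *Lmod1* were 1.12, 0.45 and 1.14 (edgeR adjusted p = 0.0605, 0.57 and 0.174). Without the 3 lines rich in fibroblast markers, the count was again 4, while 3861 of 20000 genes were higher and 3472 lower.

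CASP against B6D2F1 shares the B6D2F1 lines with that comparison. Of 9 members tested, 2 were higher in CASP and 0 lower, while 17.9% of all genes tested were higher and 17.5% lower. The members thus did not stand out from all genes by this count. *Tpm1* stood at 141, 141, 158 and 213 CPM in the CASP lines (in the order M3, M5, F4, F6) and rose by 1.12 (SE 0.14, edgeR adjusted p = 0.00022). *Cnn1* stood at 2.90, 1.78, 1.91 and 2.69 CPM and rose by 1.73 (SE 0.38, edgeR adjusted p = 0.00512). Both genes thus stood above the B6D2F1 lines in all 8 lines of castaneus origin. *Tagln* (3.97 to 8.26 CPM) and *Des* (3.89 to 11.3 CPM) also lay above both B6D2F1 lines in all CASP lines, without passing (log2 differences of 0.79 and 1.23, edgeR adjusted p = 0.0767 and 0.0574). Of all genes tested, 53.5% did not overlap between the CASP and B6D2F1 lines.

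The CASP lines varied more among themselves than the CAST lines did in *Tpm2* (SD 3.04 against 0.586 CPM, n = 4 each), a spread carried by CASP M3 (10.5 CPM) and F6 (5.93 CPM). Without B6D2F1 M3, *Cnn1* no longer passed between CASP and B6D2F1 (edgeR adjusted p = 0.0614). Leaving out single CASP lines raised *Acta2* (without F4, 1.19, edgeR adjusted p = 0.0416) and *Tagln* (without M5 or F4, 0.95 and 0.98, adjusted p = 0.0427 and 0.0258) past the threshold, and *Des* passed without CAST M2, CAST F1 or CASP F6 (adjusted p = 0.0472, 0.0175 and 0.0222). Without the 3 lines rich in fibroblast markers, *Tpm1* and *Cnn1* still passed, and *Myl9* was lower in CASP by 1.08 (edgeR adjusted p = 0.0329).

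Between the castaneus strains, the members called were *Tagln*, *Lmod1* and *Tpm2*. Of 9 tested, 1 was higher in CASP and 2 were lower, while 15.2% of all genes tested were higher and 16.4% lower. By this count the members did not stand out from all genes. *Tagln* fell by 1.12 from CAST to CASP (SE 0.25, edgeR adjusted p = 0.00663), with means of 12.7 ± 1.16 and 5.86 ± 2.21 CPM (SD, n = 4 each). *Lmod1* fell by 1.68 (SE 0.41, edgeR adjusted p = 0.0102), from 1.43 ± 0.445 to 0.438 ± 0.199 CPM. *Tpm2* rose by 1.19 (SE 0.33, edgeR adjusted p = 0.0191), from 2.68 ± 0.586 to 6.17 ± 3.04 CPM. The CASP and CAST lines did not overlap in 4 of 9 members, these 3 and *Myl9*, nor did they in 31.6% of all genes tested. *Myl9* was 0.852 to 2.81 CPM in CASP and 2.96 to 4.47 CPM in CAST and did not pass (log2 difference -0.88, edgeR adjusted p = 0.0681).

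The call for *Tpm2* was the least firm. It was lost without CAST M2 or M8 (edgeR adjusted p = 0.0613 and 0.071) and without the 3 lines rich in fibroblast markers (0.75, adjusted p = 0.0514). *Myl9* became a call without CASP F6 (-1.29, adjusted p = 0.00615) and without those 3 lines (-1.53, adjusted p = 0.00874). *Tpm1* and *Cnn1* gave no difference between CASP and CAST that passed, with log2 differences of 0.05 (95% interval -0.20 to 0.29) and -0.06 (95% interval -0.66 to 0.55). For *Tpm1* the interval leaves room for at most a small change. Reads of both castaneus strains were aligned to the GRCm38 reference of C57BL/6, and the part of sequence differences in these values was not tested.

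**Figure D5:**
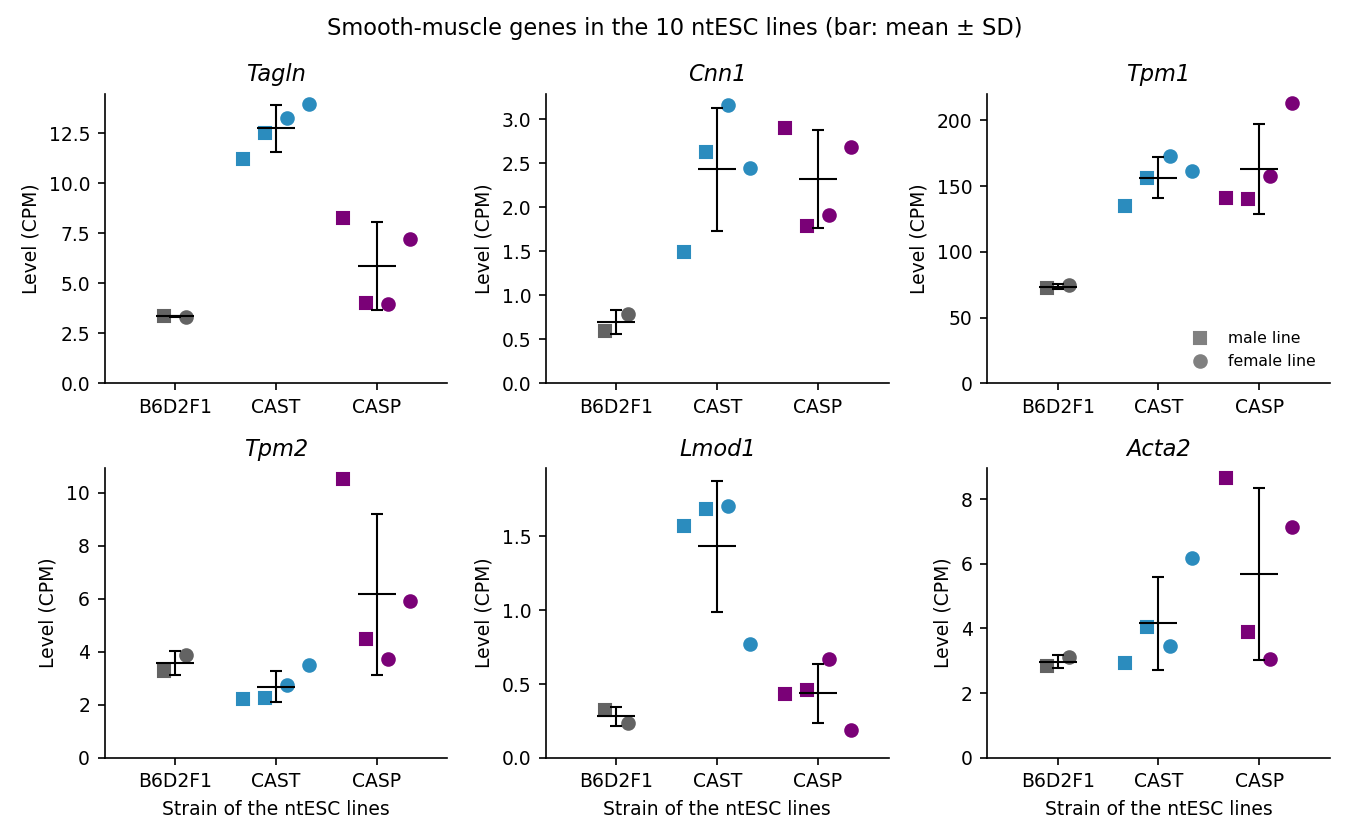
Level in CPM of 6 smooth-muscle genes in the ntESC lines by strain, with squares for male and circles for female lines and a bar at the mean ± SD (n = 2 for B6D2F1, n = 4 for CAST and for CASP). *Tagln* and *Lmod1* are highest in CAST (means of 12.7 and 1.43 CPM), and *Tpm2* is highest in CASP (6.17 CPM). *Tagln*, *Tpm1* and *Cnn1* stand above B6D2F1 in all 8 castaneus lines. Of all genes tested, 57.2% did not overlap between CAST and B6D2F1, and 53.5% did not between CASP and B6D2F1.

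Single genes that work with the members showed each pattern. *Cald1*, which encodes an actin-binding regulator of smooth muscle, was higher in CAST and in CASP than in B6D2F1, at 71.2 ± 10.7 and 69.6 ± 17.9 against 20.9 CPM (log2 differences of 1.76 and 1.73, edgeR adjusted p = 0.00066 and 0.00064). *Mylk* was higher in CAST, at 1.57 ± 0.275 CPM against 0.456 CPM in B6D2F1 (1.78, edgeR adjusted p = 0.00497) and 0.542 ± 0.184 CPM in CASP (-1.55 from CAST to CASP, edgeR adjusted p = 0.00248). Of 14 other contractile genes tested, CAST exceeded B6D2F1 in 4 and was below it in 0. CASP exceeded B6D2F1 in 4 and was below it in 1, and CASP exceeded CAST in 0 and was below it in 4. Over all genes tested, the shares higher and lower were 17.4% and 15.3% for CAST against B6D2F1. They were 17.9% and 17.5% for CASP against B6D2F1, and 15.2% and 16.4% for CASP against CAST. The counts of the lists that follow stand beside the same shares. Of 8 regulators tested, 0 passed between CAST and B6D2F1. Between CASP and B6D2F1, *Srf* (0.54) and *Foxf1* (2.82) were higher and *Mrtfb* was lower (-0.40), and between CASP and CAST, *Mrtfa* (0.55) and *Gata6* (0.93) were higher and *Mrtfb* was lower (-0.72). Of the 14 fibroblast markers, 3 were higher and 1 lower in CAST, and 2 were higher and 0 lower in CASP, than in B6D2F1. Of 13 matrix genes, 0 passed between CAST and B6D2F1, and *Fn1* and *Sparc*, the genes for fibronectin and osteonectin, were lower in CASP than in B6D2F1 (-0.82 and -1.06). The median log2 differences of the fibroblast markers and the matrix genes were 1.11 and 1.17 between CAST and B6D2F1 and 0.91 and 0.92 between CASP and B6D2F1, beside 0.87 and 0.79 for the members. The fibroblast lists thus moved with the members by their medians, and their part in the members' differences was not tested. Leaving out the 3 lines richest in fibroblast markers cannot test it. By the median fibroblast marker, the other castaneus lines (3.28% to 7.13% of MEF) still stood above both B6D2F1 lines (2.87% and 3.21%).

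The sex of the lines made no difference that passed. Between 5 female and 5 male lines, with strain as a covariate, 0 of 9 members were higher or lower by edgeR, and 0 by DESeq2 or limma. Of 20226 genes, 0.00494% were higher and 0.0445% lower in female lines. *Tpm1* was the only member with an unadjusted p under 0.05, with 156 ± 50.5 CPM in female and 129 ± 32.6 CPM in male lines (log2 difference 0.24, 95% interval 0.02 to 0.46, unadjusted p = 0.0343, edgeR adjusted p = 0.793). The intervals of the other members reached from -1.10 (*Lmod1*) to 0.86 (*Myh11*). Whether the sexes differed by another amount in CASP than in CAST was tested in 8 lines, and 0 of 9 members passed, with none at an unadjusted p under 0.05. Of 19866 genes, 0.00503% and 0.0101% passed in each direction.

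The correlations between members varied widely among the ntESC lines. Over the 45 pairs of members, Pearson's r of log2(CPM + 1) over the 10 lines ran from -0.67 to 0.91 with a median of 0.28, and 37 pairs were above 0. The lines of a strain share their genome, so these points are not independent. *Actg2* and *Myh11* had at most 24 and 21 counts in any line, which limits r for their pairs. Pairs of other genes were not compared. By mean log2(CPM + 1) of the members, the genes most like them over all 13 libraries, among 13850 with a mean of at least 1 CPM, were *Foxc1*, *Zic1*, *Inpp4b*, *Bmp5* and *Tgfb2* (r = 0.989 to 0.992). These followed the order MEF, TTF and pluripotent lines, as *Zic1* did with 114 CPM in MEF, 20.8 CPM in TTF and at most 0.666 CPM in the ntESC lines. Over the 10 ntESC lines alone, among 12985 genes, they were *H2-T23*, *Rps18-ps3*, *Cox8a*, *Pygl* and *Gsn* (r = 0.924 to 0.961), of which *Gsn* encodes the actin-severing protein gelsolin and stood at 4.02 to 15.8 CPM in the lines.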

How the data were processed

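RNA from 13 mouse cultures had been sequenced by the authors with a stranded poly(A) kit as paired reads of 100 bases. The submitters' processing notes name fastp 0.22.0, HISAT2 2.2.1, StringTie 2.1.7 and edgeR, and the build GRCm38. Reads of all strains were aligned to that build. The annotation and the strand setting of the counting were not given in the sources used here. The authors deposited whole-number read counts per gene and, in a second table, log2 values normalized across the libraries, which were used only for one alternative (limma). Of 21706 genes, 21675 were matched to GENCODE M21, which gave positions and exon lengths.

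Groups came from the sample labels. Library totals were 33395162 to 49968894 counts, and 3 counts set the smallest level read as present. Counts were tested with edgeR 4.0.16 in R 4.3.3 (quasi-likelihood test, TMM factors, edgeR's filter on low counts), with p-values adjusted over all genes by the Benjamini-Hochberg method at a threshold of 0.05. The script was tested on simulated data. Each group sample was a separate line or culture, so p-values between groups of ntESC lines measure the spread between lines. The test against the fibroblasts had no strain term. Its spread also holds the differences between strains of ntESC lines and between the MEF and TTF libraries. MEF and TTF, with 1 library each, were compared as log2 ratios of CPM + 0.5 for genes with at least 5 CPM in the higher library, without a test. Levels of different genes were compared as CPM per kilobase of merged exons.

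The members and the gene lists were chosen with earlier results of these data known. The genes named were all 10 members, all listed regulators, up to 4 genes of each other list with the largest change past the threshold and a mean of at least 5 CPM in the higher group, genes of a cell type list with a count of 0 in a library named, and the 5 genes most like the members. Other genes named, such as *Pdgfra*, *Mylk* and *Gm48529*, were chosen after their values were seen. Some listed genes are not reported here by name. Alternatives were other size factors, filters on low counts, DESeq2 1.42.0, limma 3.58.1, other covariates, ESC added to a group, and leaving out each library in turn. Tables and plots were made with Python 3.11.15, pandas 2.3.3 and matplotlib 3.10.9.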

Additional observations from a re-analysis of the deposited data

Results flagged for a closer look

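Among the 4 CAST lines, *Myl9* in CAST M2 stood apart, at 4.47 CPM against 2.96 to 3.13 CPM in the other 3 lines. *Lmod1* in CAST F2 stood apart in the other direction, at 0.772 CPM against 1.57 to 1.71 CPM. In both, the distance to the nearest line, as a share of the group's range, passed Dixon's 95% limit for 4 samples, which chance passes in about 1 in 20 groups.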

How the results depend on the processing

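All 10 members were lower in the ntESC lines than in the fibroblasts with other size factors, no filter, DESeq2, limma and ESC added, and 9 to 10 with 1 library left out, the lowest without MEF. With a mean of at least 5 CPM required, 9 of 9 tested were lower. In the strain comparisons that filter left 3 members to test, of which 2 (CAST against B6D2F1), 1 (CASP against B6D2F1) and 1 (CASP against CAST) passed, in place of 4, 2 and 3. With ESC counted as a B6D2F1 line, 1 member passed in each comparison with B6D2F1. Of 20014 genes tested, 2913 were then higher and 2947 lower in CAST, and 3404 higher and 3732 lower in CASP. With DESeq2, 4 members passed between CASP and B6D2F1, while 4191 of 20226 genes were higher and 3772 lower. With 1 library left out, 2 to 4 members passed between CAST and B6D2F1, 1 to 4 between CASP and B6D2F1, 2 to 4 between CASP and CAST, and 0 in both tests of sex. Without the 3 lines rich in fibroblast markers, an alternative chosen after the data were seen, the counts were 10, 4, 3 and 3. Of 20761 genes tested against the fibroblasts, 4140 were then higher and 5226 lower. Of 20000 tested in the strain comparisons, 3861, 3403 and 2395 were higher and 3472, 3293 and 2650 lower, in the same order. The number of all genes that passed also changed with the setting, so a changed count of members is not particular to them. All 10 members stayed at least 2-fold higher in MEF than in TTF with other size factors, and 8 at 4-fold. The residual median of 0.761% of MEF was 0.747% to 0.794% with 1 line left out, and 4.31% of TTF, where the fibroblast markers stood at 1.99%.

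Directions that turned were all of differences that had not passed. With ESC as a B6D2F1 line they were *Des* in CAST (-1.29) and *Tagln* (-0.0036), *Tpm2* (-0.11), *Des* (-0.88) and *Lmod1* (-0.56) in CASP. Between CASP and CAST, *Acta2* (-0.0017) and *Tpm1* (-0.085) turned without the 3 lines, *Tpm1* with library size only (-0.0070), and *Cnn1* (-0.26 to 0.10) and *Tpm1* (-0.076 to 0.11) with 1 line left out. *Myh11* between CASP and B6D2F1 ran from -0.28 to 0.15 with 1 line left out. Between the sexes, *Acta2* (-0.12 to 0.36), *Tagln* (-0.10 to 0.23), *Tpm2* (-0.16 to 0.30) and *Myh11* (-0.19 to 0.17) turned with 1 line left out, *Tagln* with library size only (-0.00044), and *Tpm2* (0.0037) and *Myh11* (0.0105) with limma. The causes were not tested. No paired analysis was possible because the line names do not pair lines across groups. The single MEF, TTF and ESC libraries and the 2 B6D2F1 lines limit every comparison that uses them, and *Actg2* and *Myh11* rested on at most 24 and 21 counts in any line.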

Other observations

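The striated-muscle genes were also compared between the ntESC lines. Of 14 tested, CAST exceeded B6D2F1 in 4 and was below it in 0, while 17.4% of all genes tested were higher and 15.3% lower. CASP exceeded B6D2F1 in 4 and was below it in 0, beside 17.9% and 17.5% of all genes. CASP exceeded CAST in 3 and was below it in 3, beside 15.2% and 16.4% of all genes. Their summed level ran from 59.2 CPM in B6D2F1 M3 to 398 CPM in CASP F6, and most of it was *Ttn*, the gene for titin, at 47.0 to 386 CPM. *Myf5* and *Myl1* had a count of 0 in all 10 lines.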
